A study of Mus musculus with 12 samples.

Results

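The Ly6 genes described here are 5 members of the mouse lymphocyte antigen 6 family, Ly6a, Ly6c1, Ly6c2, Ly6e and Ly6i. They were found by gene symbol among the 24421 genes listed for every library, and all 5 were present. Ly6a was chosen by its CPM in the miR-182-deficient and WT libraries after RANKL, where it was among the most raised genes, so its values in that comparison are given as a description with no test. Bone marrow macrophages (BMMs) were studied by RNA-seq in 6 conditions with 2 replicates each, 12 libraries in all. BMMs are osteoclast precursors grown here from bone marrow in M-CSF for 3 days, and RANKL, the cytokine that drives osteoclast differentiation, was given for 5 days in the stimulated conditions. The study asked which genes miR-182 regulates as these precursors respond to RANKL.

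LysMcre is a Cre recombinase driven by the lysozyme M promoter of myeloid cells, and the LysMcre mice used for the crosses were on the C57BL/6 background. All groups are given as LysMcre(+), so by the stated genotypes no group is free of Cre. Whether every library had the same background and the same LysMcre genotype was not tested. In the loss of function experiment, WT mice had the genotype Mir182+/+LysMcre(+) and Mir182ΔM/ΔM mice the genotype Mir182flox/floxLysMcre(+), and BMMs of each were taken without RANKL (basal) and after RANKL. In the gain of function experiment, Control mice were LysMcre(+) and Mir182mTg mice were LSL-Mir182LysMcre(+), in which Cre removes a STOP fragment in front of a Mir182 transgene at the Rosa26 locus, and both were taken without RANKL. The study matched mice for gender and age and used littermates as controls, but the age of the mice used for RNA-seq and the number pooled per library are not given in the sources used here. The labels do not say that replicates came from separate mice, while the study calls them biological replicates, so p-values below measure the spread between these libraries. By the labels, replicate 1 was polyA RNA and replicate 2 total RNA. The spread thus includes any difference between these preparations, which the main fits do not take out.

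Ly6 proteins are small proteins that share a disulfide-rich LY6/uPAR domain and mostly sit on the outside of the cell membrane on a glycosylphosphatidylinositol (GPI) anchor. Ly6a encodes Sca-1, the antigen used with Kit to sort hematopoietic stem and progenitor cells and one that T cells and endothelial cells also carry. Ly6c1 and Ly6c2 encode the Ly6C antigens, of which Ly6c2 marks inflammatory monocytes. Ly6e restricts entry of coronaviruses and is a receptor for syncytin-A in the placenta, and Ly6a and Ly6e are both long known as interferon-induced genes.

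The 5 genes lie side by side on chromosome 15 within 157 kb (mm10, with gene models of GENCODE M21). Ly6e is at chr15:74955051-74959905 on the plus strand. The other 4 are on the minus strand, with Ly6i at chr15:74979534-74983430, Ly6a at chr15:74994877-74998031, Ly6c1 at chr15:75044018-75048830 and Ly6c2 at chr15:75108158-75111970. The coding sequences are shown from the start codon because they set how well reads of these genes can be told apart. Each line holds the first 90 coding bases, and capitals mark the bases that differ from Ly6a in a global alignment of the whole coding sequences.
Ly6a: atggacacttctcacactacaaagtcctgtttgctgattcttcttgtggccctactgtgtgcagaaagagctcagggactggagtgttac
Ly6i: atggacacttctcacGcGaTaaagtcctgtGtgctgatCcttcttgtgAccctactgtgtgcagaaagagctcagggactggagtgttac
Ly6c1: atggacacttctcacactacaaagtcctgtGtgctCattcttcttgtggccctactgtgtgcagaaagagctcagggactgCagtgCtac
Ly6c2: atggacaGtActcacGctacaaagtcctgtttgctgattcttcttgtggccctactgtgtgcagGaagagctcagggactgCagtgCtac
Ly6e: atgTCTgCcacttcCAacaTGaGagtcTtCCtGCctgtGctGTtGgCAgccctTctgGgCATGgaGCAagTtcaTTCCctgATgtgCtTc

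Over the whole coding sequence, which spans 402 bases in Ly6a and Ly6i, 393 in Ly6c1 and Ly6c2 and 408 in Ly6e, Ly6c1 and Ly6c2 were 97.7% identical. Ly6a was 86.3% identical to Ly6i and 81.8% and 81.6% to Ly6c1 and Ly6c2, whereas Ly6e was only 49.5% to 52.2% identical to the other 4. Of all 50-base stretches of the representative transcript, 36.7% in Ly6c1 and 33.0% in Ly6c2 also occurred in a transcript of another gene. These shares were 8.05% in Ly6a, 4.97% in Ly6i and 0% in Ly6e. How the counting treated reads that match several genes is not given in the sources used here, so the split of reads between Ly6c1 and Ly6c2 is uncertain and Ly6e is the member least open to this doubt.

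The miRNA of the study is printed with its seed, bases 2 to 8, in capitals, because a match to the seed in a 3′ untranslated region is the usual mark of a miRNA target. It is encoded at chr6:30165962-30165986 on the minus strand (RefSeq, GRCm38.p6).
mmu-miR-182-5p: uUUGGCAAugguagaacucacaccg
Neither of the matching sites, TTGCCAA for bases 2 to 8 and TGCCAAA for bases 2 to 7 followed by A, was found in the 3′ untranslated regions of the 5 Ly6 genes. A site of either kind was present in 18.3% of all 20982 genes with such a region, a share not matched for length. The longest such region had 1192 bases in Ly6e and 380 to 389 in Ly6a, Ly6c1, Ly6c2 and Ly6i. RefSeq promoter windows (GRCm38.p6) were at hand for Ly6c1 and Ly6c2, with 2 windows each, and not for Ly6a, Ly6e and Ly6i. None of these 4 windows held GAAA followed by NN and a second GAAA, a pattern like the interferon-stimulated response element, or TTCNNNGAA, a pattern like the interferon-gamma-activated site, on either strand. All promoters held them at 3.44% and 8.30%.

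Sequencing depth was 24951280 to 33050619 reads on genes per library, so 3 reads, taken as the limit that a count of 0 allows, came to 0.0908 to 0.120 CPM, a limit that covers counting error only. CPM, the unit of level used here, is the number of reads on a gene scaled to a fixed total per library. Reads on Mir182 itself were 79 and 123 in the 2 Mir182mTg libraries, 1 in replicate 1 of basal Mir182ΔM/ΔM and 0 in the other 9, so these tables check the transgene and not the deletion. The WT RANKL libraries stood apart from the rest of their experiment. Lyz2, the lysozyme M gene, had 4117 and 4288 CPM there and 22.5 to 44.0 CPM in the other 6 loss of function libraries, against 5783 to 7062 CPM in Control and Mir182mTg. Ifi202b, an interferon-inducible gene, had 1.12 and 0.972 CPM in WT RANKL and 82.1 to 152 CPM in the other 6 loss of function libraries, while it had at most 3 reads in any Control or Mir182mTg library. The part of this difference in the results below was not tested, and results that rest on the WT RANKL libraries are named as such.

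**Figure D1:**
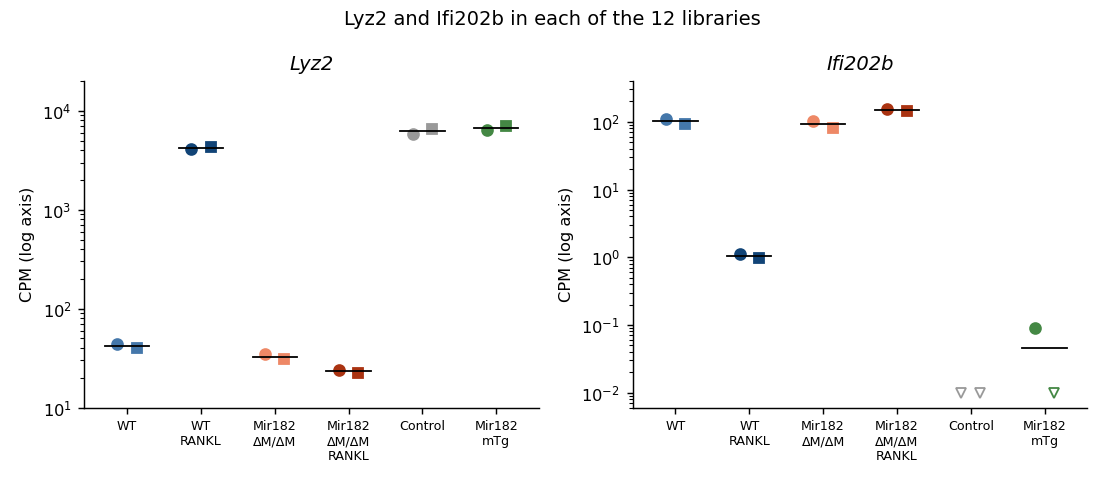
Level of Lyz2 and Ifi202b in CPM (log axes) in each of the 12 libraries, with circles for replicate 1, squares for replicate 2, open triangles for libraries with 0 reads drawn at 0.01 CPM, and bars for the mean of each condition. Both WT RANKL libraries lie with Control and Mir182mTg for Lyz2, and for Ifi202b they are at 1.12 and 0.972 CPM, far under the other loss of function libraries.

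The identity of the cells was checked with marker lists. The 10 macrophage markers, such as Csf1r and Adgre1, summed to 6304 to 9018 CPM in the 12 libraries and none was at 0 in any condition. The 10 osteoclast markers, such as Acp5 and Ctsk, rose in 10 of 10 genes with RANKL in WT and in 9 of 10 in Mir182ΔM/ΔM. They summed to 10643 to 10857 CPM in WT RANKL and 3253 to 3285 CPM in Mir182ΔM/ΔM RANKL. Over all genes, 40.6% rose with RANKL in WT and 30.5% in Mir182ΔM/ΔM. Because Ly6a and Ly6C are also markers of other cells, lists for those were read as well. The 8 hematopoietic progenitor markers summed to 9.40 to 13.6 CPM over the 4 loss of function conditions and to 53.3 to 74.5 CPM in Control and Mir182mTg. The 7 T cell markers in the tables summed to 33.4 to 163 CPM. Cd4 rose with RANKL from 4.92 to 12.3 CPM in mean in WT and from 2.95 to 14.8 CPM in Mir182ΔM/ΔM. Il7r, the main part of the sum, fell in both. Of the 7, Cd3d, Cd3e and Cd8a had 0 reads in WT basal and Cd3d, Cd3e, Cd3g and Cd8a in Mir182ΔM/ΔM basal. After RANKL, Cd8a had 0 reads in WT and Cd3d in Mir182ΔM/ΔM. B cell markers summed to at most 7.28 CPM. In bulk RNA, fewer cells of a type and less RNA per cell cannot be told apart.

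Ly6e was by far the most abundant of the 5 genes, and Ly6a had its one high level in Mir182ΔM/ΔM cells after RANKL. Per kilobase of transcript (RPKM, computed with the length behind the deposited RPKM), Ly6e had 105 ± 7.75 RPKM (SD, n = 2) in WT basal and 1382 ± 50.8 in Mir182ΔM/ΔM RANKL, with 147 to 559 in the other 4 conditions. Ly6a had 1.80 ± 0.22 RPKM in WT basal, 3.12 to 8.43 in 4 other conditions and 288 ± 55.8 in Mir182ΔM/ΔM RANKL. Ly6c2 ranged from 0.156 RPKM in Mir182ΔM/ΔM RANKL to 6.22 RPKM in Mir182mTg, and Ly6i from 0.0182 RPKM in Control to 2.57 RPKM in Mir182ΔM/ΔM RANKL. Ly6c1 was at 0 reads in 8 libraries and had 1 read in each of the 2 Mir182ΔM/ΔM RANKL and the 2 Control libraries, under the limit of 3 reads in all 12. It passed no filter on low values, and where all genes were tested without a filter it was not called in any comparison. Ly6a, Ly6c2, Ly6e and Ly6i passed in the loss of function experiment and Ly6a, Ly6c2 and Ly6e in the gain of function experiment.

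**Figure D2:**
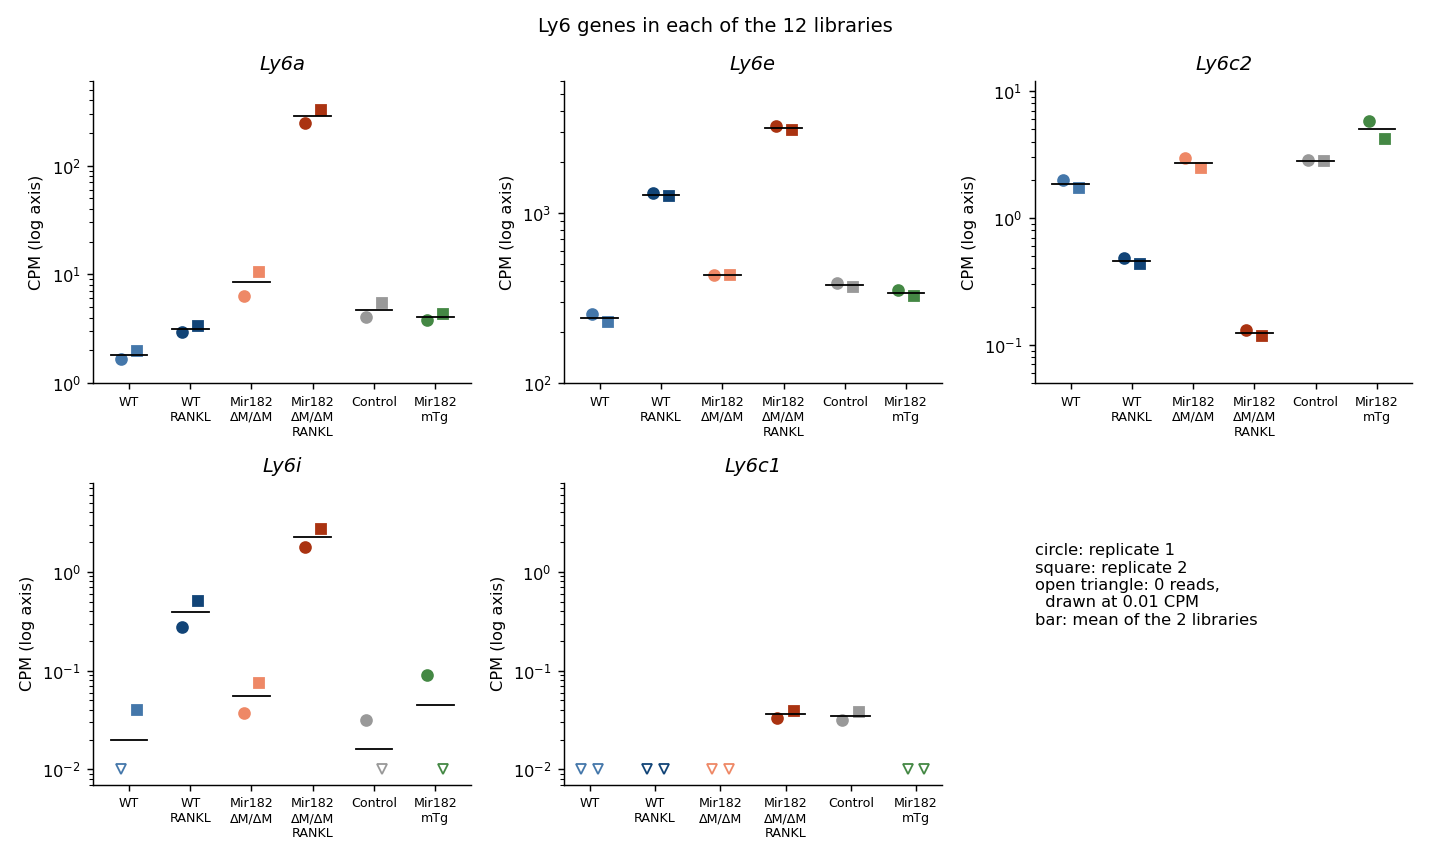
Level of the 5 Ly6 genes in CPM (log axes) in each of the 12 libraries, with the marks of the plot of Lyz2 and Ifi202b. Ly6a, Ly6e and Ly6i have their highest values in the 2 Mir182ΔM/ΔM RANKL libraries, where Ly6c2 has its lowest, and Ly6c1 has at most 1 read in any library.

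The comparison of Mir182ΔM/ΔM with WT before RANKL asks whether miR-182 deficiency alone changes these genes, and its fold changes use no library that chose Ly6a, although its errors come from one fit that includes the RANKL libraries. Ly6a and Ly6e were both higher in Mir182ΔM/ΔM BMMs, by 4.67-fold and 1.79-fold in mean CPM. Ly6a had 1.65 and 1.96 CPM in the WT libraries and 6.33 and 10.6 CPM in the Mir182ΔM/ΔM libraries. The 2 genotypes did not overlap, and the Mir182ΔM/ΔM libraries differed from each other by more than the WT libraries did. The log2 fold change of Ly6a, fitted on log2(CPM + 1), was 1.72 ± 0.23 (SE, n = 2 per group; limma, adjusted p = 0.01004). Ly6e had 254 and 229 CPM in WT and 433 and 432 CPM in Mir182ΔM/ΔM, again without overlap, and its log2 fold change was 0.84 ± 0.07 (limma, adjusted p = 0.00188).

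Ly6c2 had 1.99 and 1.72 CPM in WT and 2.96 and 2.46 CPM in Mir182ΔM/ΔM, a ratio of means of 1.46. Its log2 fold change of 0.38 ± 0.11 did not pass (limma, adjusted p = 0.133), and it passed once replicates were blocked in the fit (limma, adjusted p = 0.0313). Ly6i had 0 and 1 reads in WT and 1 and 2 reads in Mir182ΔM/ΔM, too few to compare. Thus 2 of the 4 tested members were called higher and 0 lower, where 2.72% of all 11673 genes tested were called higher and 1.11% lower. With the block 3 of the 4 were called higher, where 18.6% of all genes were. The call of Ly6a was lost when either WT basal library was left out (adjusted p = 0.0688 without replicate 1 and 0.0560 without replicate 2). Without the WT RANKL libraries in the fit, it had an adjusted p of 0.0226 (limma). In a filter and fit on the 4 basal libraries alone, which leaves out every library that chose Ly6a and was added after seeing the data, Ly6a was not called (limma, adjusted p = 0.0542) and Ly6e was (adjusted p = 0.0225), where 73 of 11044 genes were called higher.

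Genes of the pathway that induces Ly6a and Ly6e were read beside them. Of the 24 interferon-stimulated genes tested, a list that holds no Ly6 gene, 21 were higher and 1 lower in basal Mir182ΔM/ΔM than in WT, with a median log2 fold change of 1.08 against 0.01 over all genes. Oasl2 and Oas3, of the oligoadenylate synthetase family that responds to viral RNA, had log2 fold changes of 1.25 ± 0.11 and 1.27 ± 0.06 (limma, adjusted p = 0.00239 and 9.5e-05). Ddx58, which encodes the RNA sensor RIG-I, was at 0.61 ± 0.11 (adjusted p = 0.0326), and the antiviral surface protein gene Bst2 did not pass at 0.46 ± 0.34 (adjusted p = 0.627). The gene called lower was Ifi44, named after its value was seen, at -2.33. Of the 16 genes of interferon receptors and signaling, 4 were higher and 1 lower, with Irf7, a transcription factor that amplifies the interferon response, at 1.38 ± 0.06. Not called were the kinase gene Jak1 at -0.04 and the receptor gene Ifnar1 at -0.11 on the log2 scale. These lists were chosen with earlier results of these data known.

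The other pathway read was the synthesis of the GPI anchor that Ly6 proteins need to stay on the cell surface. Of its 27 genes tested, 0 were called in either direction (limma), and the median log2 fold change was 0.02 against 0.01 over all genes. Of the other genes of the Ly6 and uPAR family, 30 were in the tables and 3 passed the filter. Plaur, the urokinase receptor, Cd59a, an inhibitor of complement, and Cd177, a neutrophil surface protein, had log2 fold changes of 0.32, 0.03 and 0.15 and none was called. Of cells that may carry Ly6a, progenitor markers were at 11.9 to 13.3 CPM summed in WT and 11.53 to 13.6 in Mir182ΔM/ΔM. Endothelial markers summed to 78.4 to 94.0 CPM in WT and 93.4 to 112 CPM in Mir182ΔM/ΔM, and 2 of the 6 tested, Kdr and Cdh5, were called higher. Their part in the Ly6a difference was not tested.

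**Figure D3:**
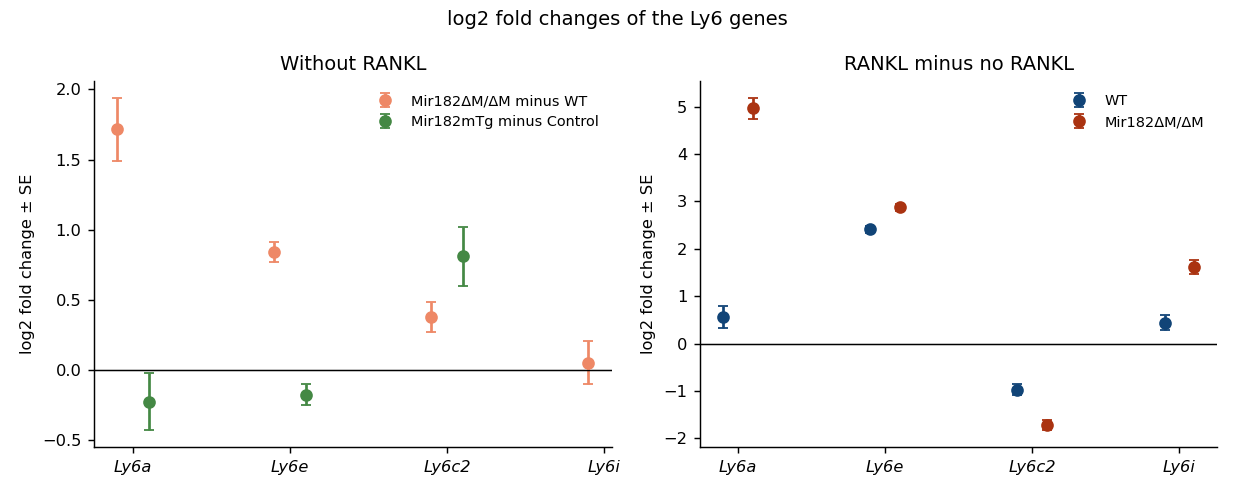
log2 fold changes ± SE of the 4 tested Ly6 genes, on the left between genotypes without RANKL and on the right between RANKL and no RANKL in each genotype. Ly6a and Ly6e lie above 0 in Mir182ΔM/ΔM against WT and below 0 in Mir182mTg against Control, where neither was called, and Ly6c2 is the one member below 0 with RANKL in both genotypes.

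The response to RANKL was first followed in WT cells, where every value rests on the WT RANKL libraries, which are also part of the comparison that chose Ly6a. Ly6e rose from 254 and 229 CPM to 1314 and 1258 CPM, 5.33-fold in mean, and its fitted log2 change was 2.41 ± 0.07 (limma, adjusted p = 3.5e-07). Ly6c2 fell from 1.99 and 1.72 CPM to 0.479 and 0.432 CPM, 4.07-fold in mean, and the fitted difference was -0.97 ± 0.11 on the log2 scale (limma, adjusted p = 0.000203). Ly6a went from 1.65 and 1.96 CPM to 2.91 and 3.35 CPM, 1.73-fold in mean and without overlap, and is given with no test. Ly6i had 0 and 1 reads without RANKL and 7 and 14 reads with it, and its fitted log2 change was 0.44 ± 0.15. It is given with no test, because it passed the filter only through the Mir182ΔM/ΔM RANKL libraries, where it is high.

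The size of the Ly6i change in WT, again a description with no test, depended on the processing. On the log2 scale it was 0.405 with TMM scaling and 0.0988 with quantile normalization. With 1 library left out it was 0.327 to 0.560. It was 2.016 with a pseudocount of 0.1 and larger still in edgeR on the recovered reads. With Ly6a and Ly6i set aside, Ly6e was called higher and Ly6c2 lower, where 40.6% of all genes were called higher and 22.0% lower. The split of calls over all genes depended on the scaling, with 4738 higher and 2566 lower on the deposited CPM and 3339 higher and 3561 lower with TMM factors, as the median log2 fold change of all genes went from 0.19 to -0.01. Against that median, Ly6e and Ly6c2 kept their directions and their calls under TMM, at 2.20 and -1.06.

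Ly6e rose in WT where most of the interferon-stimulated genes fell. Of these 24 genes 4 rose and 16 fell with RANKL, with a median log2 fold change of -0.54 against 0.19 over all genes, and the 4 that rose were Cxcl10, Gbp3, Oasl1 and Ddx58, named after their values were seen. Oasl2 was at -1.06 ± 0.11 and Oas3 at -0.55 ± 0.06 (limma, adjusted p = 0.000152 and 0.000129), where Ly6e was at 2.41. Of the 16 receptor and signaling genes 5 rose and 5 fell, with Irf7 at -0.24 and Jak1 at -0.22 among those that fell, and Ifnar1 at 0.01 not called. GPI anchor genes rose in 8 and fell in 5 of 27, where 40.6% of all genes rose and 22.0% fell. Pigq and Pgap2, which act at the first step and in the later remodeling of the anchor, were at 0.88 and 1.332. Pigs was at -0.43, and Pigt was not called at 0.24. In the wider family Plaur and Cd59a rose by 0.30 and 1.23 and Cd177 fell by 1.002 on the log2 scale.

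In Mir182ΔM/ΔM cells RANKL was followed by the highest levels of Ly6a, Ly6e and Ly6i in the series and the lowest of Ly6c2. Ly6a went from 6.33 and 10.6 CPM to 249 and 328 CPM, 34.1-fold in mean, and every RANKL library lay far above every basal library. It is given with no test, because its RANKL libraries chose it. Ly6e rose from 433 and 432 CPM to 3264 and 3098 CPM, 7.36-fold in mean, and its fitted log2 change was 2.88 ± 0.07 (limma, adjusted p = 2.8e-07). Ly6i went from 1 and 2 reads to 55 and 69 reads, or 1.81 and 2.72 CPM, a ratio of means of 40.5 with a 95% counting interval of 13.3 to 196 from the exact binomial method. Its log2 fold change on log2(CPM + 1) was 1.61 ± 0.15, given with no test because it passed the filter only through the group where it is high.

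Ly6c2 fell from 2.96 and 2.46 CPM to 0.131 and 0.118 CPM, which are 4 and 3 reads, a ratio of means of 21.7 (95% counting interval 10.2 to 54.8). Its log2 fold change was -1.72 ± 0.11 (limma, adjusted p = 1.4e-05). Of the 2 members that passed the filter without these libraries and were not chosen on them, Ly6e was called higher and Ly6c2 lower, where 30.5% of all genes were called higher and 26.3% lower. Both were called without the WT RANKL libraries in the fit, with adjusted p of 2.4e-06 for Ly6e and 5.5e-05 for Ly6c2 (limma). Both share the Mir182ΔM/ΔM RANKL libraries with the comparison that chose Ly6a.

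Interferon-stimulated genes were higher too in Mir182ΔM/ΔM with RANKL, as 24 of 24 rose with RANKL and 0 fell, with a median log2 fold change of 1.38 against 0.05 over all genes. Oas3 and Ddx58 were at 1.83 ± 0.06 and 1.75 ± 0.11 (limma, adjusted p = 6.2e-07 and 1.5e-05), and Oasl2 and Bst2 at 1.47 and 1.21. Of the 16 receptor and signaling genes 12 rose and 1 fell, Irf7 rising by 3.12 while Jak1 fell by 0.41 on the log2 scale. GPI anchor genes rose in 7 and fell in 5 of 27, where 30.5% of all genes rose and 26.3% fell. In the wider family Plaur rose from 28.1 ± 0.46 to 101 ± 9.0 CPM (SD, n = 2), a log2 fold change of 1.81, Cd59a rose by 1.002, and Cd177 fell by 1.11.

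**Figure D4:**
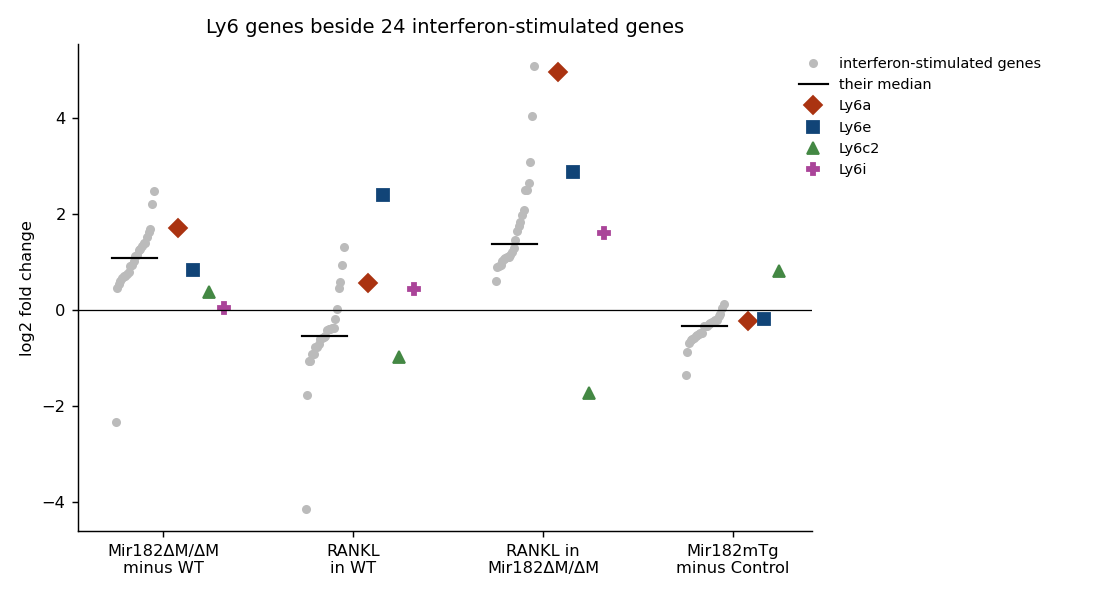
log2 fold changes of 24 interferon-stimulated genes (grey points, sorted, with a bar at their median) and of the tested Ly6 genes in 4 comparisons. In WT with RANKL the interferon-stimulated genes have a median of -0.54 and Ly6e is at 2.41, whereas in Mir182ΔM/ΔM with RANKL the median is 1.38 and Ly6a, Ly6e and Ly6i lie above 0.

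After RANKL, the comparison of the genotypes is the one that chose Ly6a, and its values are a description. Ly6a had 2.91 and 3.35 CPM in WT and 249 and 328 CPM in Mir182ΔM/ΔM, a ratio of means of 92.1. Ly6e had 1314 and 1258 CPM in WT and 3264 and 3098 CPM in Mir182ΔM/ΔM, a ratio of 2.47, and Ly6i had 7 and 14 reads against 55 and 69 reads, a ratio of 5.77 in CPM. Ly6c2 went the other way, with 12 reads in each WT library against 4 and 3 reads in Mir182ΔM/ΔM, which is 3.65-fold lower. As a description only, since Ly6a was chosen on this comparison and Ly6i passed the filter through its Mir182ΔM/ΔM libraries, 3 of the 4 members in the fit lay higher in both Mir182ΔM/ΔM libraries than in both WT libraries and 1 lower, where 23.1% and 48.6% of all 11673 genes did so. With TMM factors 3 of the 4 again lay higher, and the shares of all genes became 33.7% and 35.0%. Because this contrast rests on the WT RANKL libraries, Mir182ΔM/ΔM RANKL was also set beside WT basal, with mean ratios of 160 for Ly6a and 13.2 for Ly6e. Set beside the same WT basal libraries, Control BMMs of the other experiment, whose tables were deposited separately, had 2.62-fold more Ly6a, 1.58-fold more Ly6e and 1.53-fold more Ly6c2 in mean CPM, with no test.

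Markers of other cells were read beside these differences. Calls between the genotypes after RANKL rest on the WT RANKL libraries. Over all 11673 genes, 1666 were called higher and 3609 lower in Mir182ΔM/ΔM, and 2403 and 2390 with TMM factors. In Mir182ΔM/ΔM RANKL the progenitor markers summed to 9.40 to 9.56 CPM and Hlf was at 0 reads, while Ly6a was at 249 and 328 CPM. Stromal markers summed to 19.9 to 36.2 CPM in Mir182ΔM/ΔM RANKL and 15.8 to 34.7 CPM in WT RANKL, with Col1a1 and Col1a2 as the main part and far apart between replicates. Dcn, a proteoglycan gene, had 4.90 CPM in mean in Mir182ΔM/ΔM RANKL and 0.691 in WT RANKL, and Cxcl12, a stromal chemokine gene, 1.70 and 0.597 CPM, and of the 5 stromal markers tested 2 were called higher and 1 lower in limma. Endothelial markers summed to 120.3 to 120.4 CPM in Mir182ΔM/ΔM RANKL and 52.2 to 62.9 CPM in WT RANKL. Within that list Kdr had 101 CPM and Vwf 10.7 CPM in mean in Mir182ΔM/ΔM RANKL, against 24.9 and 31.5 CPM in WT RANKL. Cdh5 had 3.78 against 0.300 CPM and Pecam1 1.98 against 0.264 CPM, and of the 6 endothelial markers tested 4, Kdr, Cdh5 and Pecam1 among them, were called higher in Mir182ΔM/ΔM RANKL and 1, Vwf, lower (limma). The part of such cells in the Ly6a level was not tested.

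Neutrophil markers were lower with RANKL, as Ly6c2 was. The 7 in the tables, which include Mpo, S100a9 and Ngp, fell in 7 of 7 genes with RANKL in both genotypes. Their summed level went from 90.9 to 100 CPM in WT basal to 21.9 to 22.2 CPM in WT RANKL, and from 109 to 115 CPM in Mir182ΔM/ΔM basal to 7.19 to 7.36 CPM in Mir182ΔM/ΔM RANKL. Mpo, the myeloperoxidase gene of granulocyte precursors, had 12.1 ± 1.3 and 1.52 ± 0.29 CPM in WT and 19.6 ± 0.51 and 0.220 ± 0.20 CPM in Mir182ΔM/ΔM (SD, n = 2), before and after RANKL. Of the 10 monocyte markers 2 rose and 4 fell in WT and 3 rose and 6 fell in Mir182ΔM/ΔM. Over all genes, 40.6% rose and 22.0% fell in WT, and 30.5% rose and 26.3% fell in Mir182ΔM/ΔM. Ccr2, the chemokine receptor of inflammatory monocytes, was not called in WT at -0.18 and fell by 2.95 in Mir182ΔM/ΔM, and F13a1 fell by 3.47 and 5.35 on the log2 scale. Spn and Cx3cr1, genes of nonclassical monocytes, rose by 2.09 and 2.62 in WT and by 1.64 and 1.84 in Mir182ΔM/ΔM. The part of remaining granulocytes or monocytes in the Ly6c2 level was not tested.

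**Figure D5:**
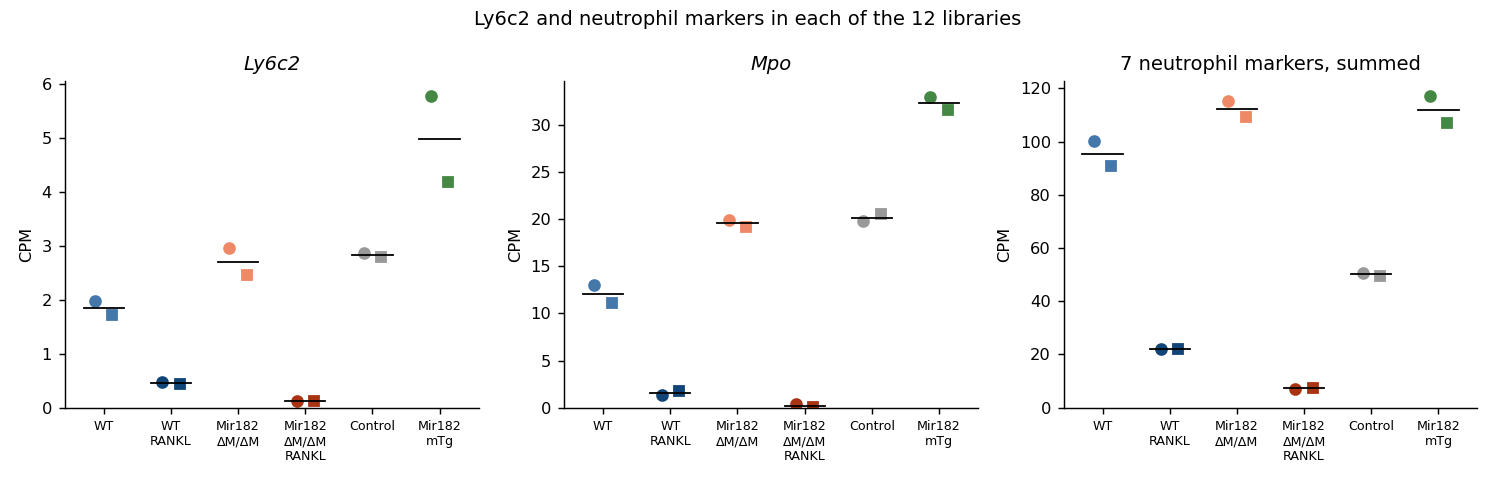
Level of Ly6c2, of Mpo and of 7 neutrophil markers summed, in CPM in each of the 12 libraries (circles for replicate 1, squares for replicate 2, bars for means). All 3 are lowest in the 2 Mir182ΔM/ΔM RANKL libraries, and Ly6c2 and Mpo are highest in Mir182mTg.

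The gain of function experiment asks whether more miR-182 moves these genes without RANKL, and it is independent of the choice of Ly6a. Ly6a had 126 and 144 reads in Control, which are 4.02 and 5.44 CPM, and 125 and 121 reads in Mir182mTg, which are 3.78 and 4.33 CPM. The 2 groups overlapped, and the log2 fold change was -0.23 ± 0.20 (SE, n = 2 per group; edgeR, adjusted p = 0.99955). Ly6e had 390 and 370 CPM in Control and 351 and 325 CPM in Mir182mTg, without overlap, and its log2 fold change of -0.18 ± 0.08 was not called (edgeR, adjusted p = 0.770). Ly6c2 had 2.87 and 2.80 CPM in Control and 5.78 and 4.19 CPM in Mir182mTg, 1.76-fold in mean and without overlap, with a log2 fold change of 0.81 ± 0.21 that was not called either (edgeR, adjusted p = 0.402). Ly6i had at most 3 reads in any of these 4 libraries.

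Of the 3 members tested 0 were called by edgeR, where 0.257% of all 12063 genes were called in either direction. Before adjustment 1 of the 3, Ly6c2, passed 0.05 in edgeR, and likewise in DESeq2 and limma. DESeq2 and limma also called 0, with adjusted p of 0.512 and 0.361 for Ly6c2. When replicates were blocked in edgeR, Ly6c2 was called higher (adjusted p = 0.00156) and Ly6e lower (adjusted p = 0.000412). In that fit 6.97% of all genes were called higher and 8.24% lower, and Ly6a stayed uncalled (adjusted p = 0.335). The directions of Ly6a and Ly6e in Mir182mTg were opposite to those in basal Mir182ΔM/ΔM, and that of Ly6c2 was the same.

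Gene groups were read in the same way. Of the 24 interferon-stimulated genes 1 was called lower and 0 higher in Mir182mTg (edgeR), with a median log2 fold change of -0.34 against 0.00 over all genes, and 2 had a value above 0. The one called was Zbp1, a sensor of nucleic acids, at -1.35 (edgeR, adjusted p = 0.0449), which was named after its value was seen. The 16 receptor and signaling genes and the 27 GPI anchor genes held 0 calls each in edgeR, with medians of -0.03 and -0.05. Neutrophil markers, which stand beside Ly6c2, had a log2 fold change above 0 in 7 of 7 genes with a median of 1.34, and none was called in edgeR. Their summed level was 49.5 to 50.7 CPM in Control and 107 to 117 CPM in Mir182mTg, and Mpo had 20.2 ± 0.49 and 32.3 ± 0.99 CPM. In WT basal of the other experiment the sum was higher than in Control, at 90.9 to 100 CPM. Mpo was lower there, at 12.1 CPM in mean, and Ly6c2 was 1.53-fold higher in Control than in WT basal. Ccr2 was the monocyte marker called lower, at -0.98 ± 0.07 (edgeR, adjusted p = 0.0209), while Ly6c2 lay higher. The part of granulocytes in the Ly6c2 difference was not tested.

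The genes with the pattern most like each member were found by Pearson's r of log2(CPM + 1) over the 12 libraries among 9790 genes with a mean of at least 5 CPM. The libraries share 6 conditions and 2 experiments, so these values describe likeness and carry no p. For Ly6a they were Ptk2, which encodes focal adhesion kinase (r = 0.986), Cxcl10, an interferon-induced chemokine (0.974), Ppp2r1b, a subunit of protein phosphatase 2A (0.973), Ifi35, an interferon-induced gene (0.971), and Setdb2, a methyltransferase gene (0.965). Without the 2 Mir182ΔM/ΔM RANKL libraries, r over the other 10 was 0.856 for Ptk2, 0.501 for Cxcl10, 0.310 for Ppp2r1b, 0.890 for Ifi35 and 0.684 for Setdb2, so the likeness of Cxcl10 and Ppp2r1b rested on these 2 libraries. Ppp2r1b had 1561 ± 128 CPM (SD, n = 2) in Mir182ΔM/ΔM RANKL and 48.1 to 66.7 CPM in mean elsewhere.

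For Ly6e the nearest genes were Mdm1 (r = 0.997), Kdr, the receptor VEGFR2 (0.994), and Coa5, a mitochondrial assembly factor (0.983), and over the 10 other libraries r was 0.993, 0.989 and 0.966. Kdr had 3.02 CPM in WT basal, 24.9 in WT RANKL, 5.80 in Mir182ΔM/ΔM basal and 101 in Mir182ΔM/ΔM RANKL, in the same order as Ly6e, with 4.89 and 5.28 CPM in Control and Mir182mTg. For Ly6c2 they were Arhgap25, a GTPase-activating protein gene (r = 0.989), Zc3hav1l (0.981) and Mpo (0.980), and over the other 10 libraries r was 0.979, 0.967 and 0.968. For Ly6i they were Rnf34, a ubiquitin ligase gene (0.979), Cxcl10 (0.974) and Pam (0.972), which rest on 55 and 69 reads in the Mir182ΔM/ΔM RANKL libraries and at most 14 elsewhere. Ly6c1, with at most 1 read per library, gives no pattern to compare.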

How the data were processed

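RNA-seq libraries were made by the authors with Illumina TruSeq kits and sequenced on an Illumina HiSeq. Reads were aligned to mm10. The labels give polyA RNA and TopHat with Cufflinks for replicate 1 of every condition, and total RNA and HISAT2, HTSeq and edgeR for replicate 2 (versions not given in the sources used here). The protocol names poly-A selection for all. The authors deposited CPM per gene for 8 samples (loss of function) and raw counts per gene for 4 (gain of function). RPKM values, deposited by the authors for replicate 1, served only to find the gene length behind them. The unit CPM held whole reads, with 100% of values within 0.01 read of a whole number, so reads were recovered by division. Of 24421 genes listed, 27 names had been turned into dates and were dropped.

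Loss of function values were fitted as log2(CPM + 1) with limma 3.58.1 (eBayes with trend) over the 11673 genes that reached 1 CPM in 2 or more libraries, all 4 conditions in one fit. Gain of function counts were tested with the edgeR 4.0.16 quasi-likelihood test (TMM, filterByExpr) over 12063 genes, with DESeq2 1.42.0 as an alternative, in R 4.3.3. Adjusted p-values are Benjamini-Hochberg over all genes tested, two-sided, with a threshold of 0.05. Fold changes on log2(CPM + 1) understate changes of low genes. Simulated data held 200 genes changed by 2-fold, each with a mean of at least 5 CPM. Of these, limma for Mir182ΔM/ΔM against WT (11673 genes) and edgeR for Mir182mTg against Control (11135 genes) recovered 100%. In each, 4.76% of calls were false. The simulated spread was a fixed value for all genes, with no difference between replicate preparations. The recovery thus says nothing on lower genes such as Ly6c2 and Ly6i, or on Ly6a at its 1.81 CPM in WT basal. It also says nothing on power with the spread of the real replicates. Depth was 24951280 to 33050619 reads, and counting intervals cover counting error only, as PCR copies were not told apart.

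Replicate numbers mark a shared preparation and pipeline per the labels, so they pair the samples. The log ratios of replicate 2 to replicate 1 correlated between every pair of conditions (r = 0.690 to 0.758 over 11673 genes). The design without the block is the main fit, after the study's methods, and the block is an alternative. The 2 replicates of each condition differed by more than sampling noise, and none were merged.

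All 5 members were named. Likewise named were the 5 genes most like Ly6a and the 3 most like each other member, at most 4 genes per list by mean CPM, and Lyz2 and Ifi202b. Members, lists and motifs were chosen with earlier results of these data known. Coding sequences and gene positions are from GENCODE M21, promoter and miRNA sequences from RefSeq (GRCm38.p6). Alternatives were another pseudocount, filters, scalings, tools, the block and each library left out. The counts of genes higher in both libraries of one group were also taken after TMM scaling, and basal genotypes were fitted on their 4 libraries alone; both were chosen after seeing the data.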

Additional observations from a re-analysis of the deposited data

Results flagged for a closer look

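The response to RANKL was compared between the genotypes by the interaction term of the limma fit, read for the 4 members in the fit. This term holds the comparison that chose Ly6a, and Ly6i passed the filter only through the Mir182ΔM/ΔM RANKL libraries. The sizes of this term are therefore a description, given with no p. The log2 response in Mir182ΔM/ΔM minus that in WT was 4.40 for Ly6a, 0.46 for Ly6e, 1.17 for Ly6i and -0.75 for Ly6c2. Ly6a, Ly6e and Ly6i thus had the larger increase in Mir182ΔM/ΔM and Ly6c2 the larger decrease. Over the alternatives the value of Ly6e was 0.39 to 0.63, that of Ly6i 0.97 to 1.89 and that of Ly6c2 -2.22 to -0.54, the far ends of Ly6i and Ly6c2 coming from a pseudocount of 0.1 and from edgeR on the recovered reads. Each value rests on the WT RANKL libraries, which stood apart in Lyz2 and Ifi202b, and the part of that difference was not tested.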

How the results depend on the processing

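In basal Mir182ΔM/ΔM against WT the number of members called was 1 to 2 over the settings that leave out 1 library, 3 with the replicate block, and 1 with the 4 basal libraries alone, a setting added after seeing the data that called 73 genes higher and 31 lower. The block gave 2166 genes higher and 1477 lower over all genes, against 317 and 129 without it, while leaving out 1 library gave 72 to 207 higher and 30 to 79 lower. Requiring at least 5 CPM left Ly6e as the 1 member called for RANKL in WT and in Mir182ΔM/ΔM, Ly6a aside. Ly6c2 then fell under the filter, as did Ly6i, which is given with no test. The extra response of Ly6a to RANKL in Mir182ΔM/ΔM ranged from 4.07 to 4.73 without either basal Mir182ΔM/ΔM library. In Mir182mTg against Control the block called 2 members, and 841 genes higher and 994 lower over all genes, against 12 and 19 without it. DESeq2 called 60 and 69 genes, limma 26 and 24, no filter on low counts 68 and 68, upper-quartile scaling 10 and 13, and leaving out 1 library 25 to 67 higher and 18 to 67 lower. The log2 fold change of Ly6a there was -0.44 to 0.0056 with 1 library left out, above 0 only without Control replicate 2, and it was never called. The replicate block changed no call of a member other than those of Ly6c2 and Ly6e given above. Ly6e kept its direction and calls for basal Mir182ΔM/ΔM and for RANKL in both genotypes under every alternative run, and Ly6c2 kept its fall with RANKL wherever it passed the filter. With at most 1 read of Ly6c1 per library, no difference of Ly6c1 was detectable at this depth.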
